A study of Gossypium hirsutum with 6 samples.

Results

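Ovule-restricted gene models are described here, that is, models of the cotton gene table with high FPKM in ovules on the day of flowering and little or none in elongating fibers or young leaves. FPKM counts the fragments of a model relative to its length and to the fragments mapped in the library, so it is a share of each library. A model qualified when both ovule libraries reached at least 5 FPKM and lay within 1.5-fold of each other. Qualifying models were ranked by (ovule + 1)/(higher of fiber and leaf + 1) on tissue means, and the 200 highest were taken. They were 200 of 77357 models in the table, or 1.03% of the 19347 models that passed the ovule minimum and the replicate limit. The rule used the ovule level, the likeness of the ovule replicates and the ovule-fiber and ovule-leaf differences, so values of these kinds are given below as a description and support nothing by themselves.

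The plants were allotetraploid cotton, Gossypium hirsutum acc. TM-1, and no treatment or genetic change is named for any group. The 3 tissues were ovules at 0 days post anthesis (DPA), fibers at 14 DPA and young leaves, and each was sequenced as 2 biological replicates, giving 6 strand-specific polyA libraries. A 0 DPA sample is a whole ovule, and it pools the embryo sac, the tissues around it and the outer epidermis, so a model expressed in few cells and a model expressed weakly in all cells cannot be told apart.

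A cotton ovule on the day of flowering has finished building its integuments and embryo sac and is about to be fertilized. Some cells of its outer epidermis are beginning to bulge as fiber initials, and each of these single cells later elongates into a fiber that lays down a thick cellulose wall. Leaves are photosynthetic organs with a largely separate set of abundant transcripts. A model limited to the ovule among these tissues may still be expressed in roots, petals, anthers or later seeds, which were not analysed here.

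The models carried the prefix Cotton_A (called A-genome models below, after the prefix alone) or Gorai (called D-genome models). The RefSeq gene table at hand matched 0 of these identifiers, so the models are given by identifier, without names, functions, coordinates or sequences, and ovule markers could not be looked up by name. Summed FPKM of the libraries lay between 927473 and 1014580, and depth relative to fiber replicate 1, read from whole-number ratios between low values, was 0.867 and 0.740 in the ovule libraries, 0.964 in fiber replicate 2 and 0.704 and 0.728 in the leaf libraries. The labels do not say which plants or harvests the replicates came from, so p-values measure the spread between these libraries only.

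High ovule levels and a likeness of the ovule replicates were set by the rule, and their sizes were as follows. Over the 200 members, the median was 124 FPKM in ovule replicate 1 and 125 FPKM in ovule replicate 2, with a range from 24.9 to 2901 FPKM in the first and from 25.0 to 2814 FPKM in the second. In fibers the medians were 0.949 and 0.666 FPKM, and in leaves they were 0.954 and 0.598 FPKM. The highest value of any member outside the ovule was 38.2 FPKM in fibers and 48.7 FPKM in leaves. The ranking ratio and the replicate limit leave no room for overlap of ovule and other libraries within a member, and there was none. The lower ovule library exceeded the highest fiber or leaf library by at least 21.4-fold in members above 0 outside the ovule.

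**Figure D1:**
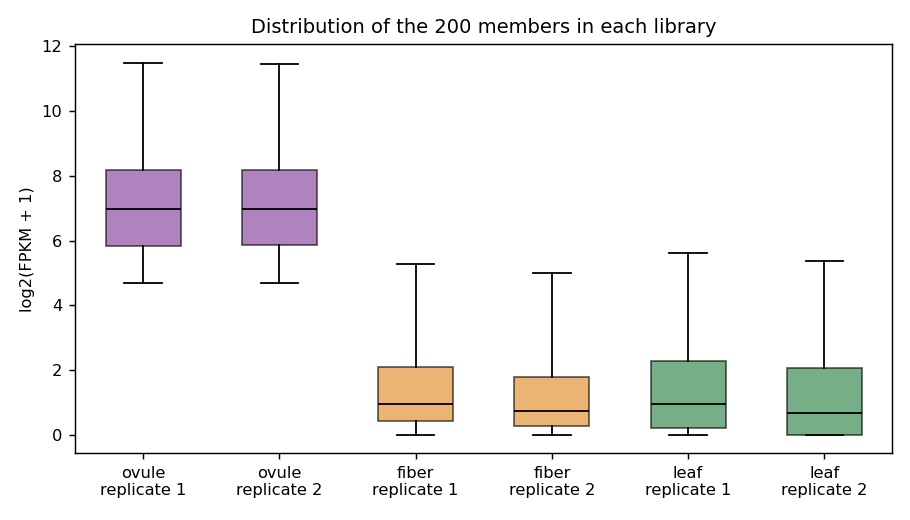
Distribution of log2(FPKM + 1) over the 200 members in each of the 6 libraries; boxes span the quartiles, the black line is the median and whiskers reach the lowest and highest member. Ovule medians were 124 and 125 FPKM, against 0.949 and 0.666 FPKM in fiber and 0.954 and 0.598 FPKM in leaf.

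Together the members held 5.91% ± 0.00536 of all FPKM in ovules, 0.0518% ± 0.00623 in fibers and 0.0761% ± 0.00364 in leaves (mean ± SD, n = 2 each). Within the ovule the levels were spread widely. Mean ovule FPKM was under 50 in 38 members, from 50 to 100 in 52, from 100 to 500 in 80, from 500 to 1000 in 17 and 1000 or more in 13. The 10 most abundant members held 31.1% and 31.3% of the members' summed FPKM in the ovule libraries.

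All 200 members passed the minimum of 0.5 mean FPKM for testing with limma on log2(FPKM + 1), and all 200 were called higher in the ovule in both contrasts, with leaf and with fiber (adjusted p under 0.01 and over 2-fold). Among all 42214 tested models, 33.5% were called above the fiber and 31.1% above the leaf in the ovule. The ranking chose members on these contrasts, so the counts add nothing to it. The members' median difference was 5.75 (ovule minus fiber) and 5.57 (ovule minus leaf) on the log2 scale, beside 0.42 and 0.48 over all tested models.

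The ranking ratio declined without a gap at the limit, though near the head it stepped from 197 at rank 6 to 137 at rank 7. It was 247 at rank 1, 132 at rank 10, 58.1 at rank 50, 39.7 at rank 100, 30.5 at rank 150 and 24.9 at rank 200, and 15 members exceeded 100. Just inside the limit, Gorai.011G016200 at rank 200 had 43.0 and 45.5 FPKM in ovules, 0.689 and 0.944 FPKM in fibers and 0 in both leaf libraries. Just outside, Gorai.008G135800 at rank 201 had 35.3 and 34.4 FPKM in ovules, 0.895 and 0 FPKM in fibers and 0.318 and 0 FPKM in leaves. Cotton_A_34955 at rank 202 was abundant, with 515 and 541 FPKM in ovules, but kept 7.71 and 5.65 FPKM in fibers and 18.5 and 22.6 FPKM in leaves. No gap separated members from the rest, since 29 models had ratios within 5% of the value at rank 200 and 714 models exceeded a ratio of 10.

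**Figure D2:**
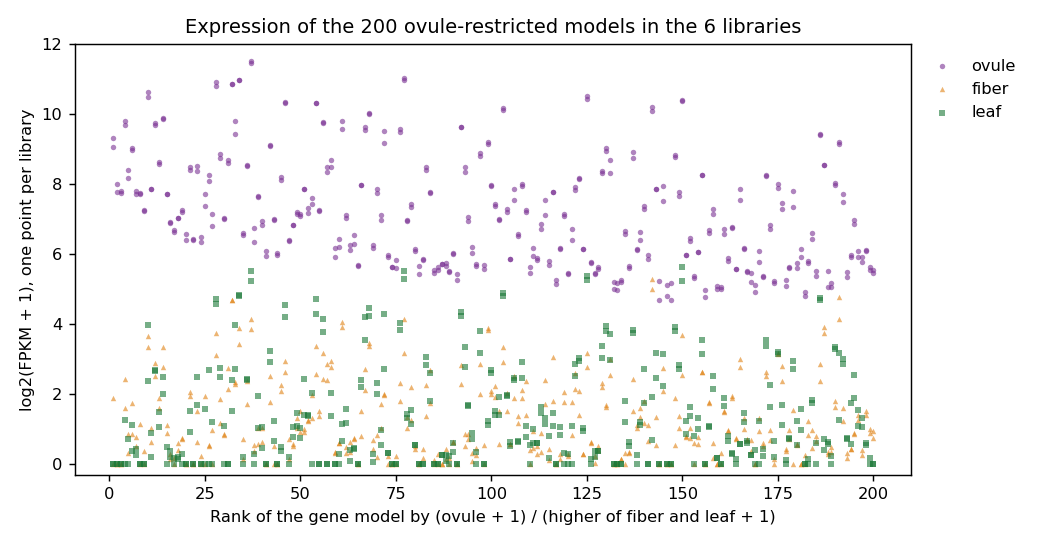
log2(FPKM + 1) of each member in each library against its rank; circles are ovule, triangles fiber and squares leaf libraries, 2 points per tissue. Ovule points lie above all fiber and leaf points at every rank, as the rule requires. The ovule level varies widely among members of similar rank.

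The 10 members at the head of the ranking had ovule means from 151 to 1502 FPKM, all above the member median of 125 FPKM. Most had almost nothing outside the ovule. Cotton_A_18771 at rank 1 had 631 and 529.6 FPKM in ovules, 2.71 and 0 FPKM in fibers and 0 in both leaf libraries. Behind these values stood 404 and 289 recovered reads in ovules and 2 reads in fiber replicate 1, where recovered reads are the smallest whole numbers that give the ratios between libraries, and thus lower bounds. Gorai.011G041500 at rank 4 was deeper, with 829.9 and 886 FPKM (4408 and 4010 reads) in ovules, 4.41 and 2.03 FPKM in fibers and 1.39 and 0 FPKM in leaves.

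Gorai.007G336600 at rank 5 had 334 and 286 FPKM in ovules, 0.820 and 0.243 FPKM in fibers and 0.665 and 0 FPKM in leaves. Gorai.009G071700 at rank 6 had 520.1 and 499.6 FPKM in ovules, 2.37 and 0.812 FPKM in fibers and 1.17 and 0.313 FPKM in leaves. Gorai.003G177800 at rank 7 had 208 and 222 FPKM in ovules, 0.701 and 0.439 FPKM in fibers and 0.357 and 0.192 FPKM in leaves. These 3 models were thus detected in both other tissues, at levels below 3 FPKM.

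Cotton_A_17706 at rank 8 had 211 and 212 FPKM in ovules, 1.20 and 0 FPKM in fibers and 0 in both leaf libraries. Gorai.012G051300 at rank 9 had 152 and 149.7 FPKM in ovules, 0.296 and 0 FPKM in fibers and 0 in leaves, from 1638 ovule reads and 2 fiber reads. Cotton_A_10547 closed the first 10 and differed from the rest by its abundance, with 1574 and 1430.1 FPKM in ovules, 11.7 and 9.10 FPKM in fibers and 4.15 and 14.7 FPKM in leaves.

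A ratio of this kind rewards values of exactly 0, and 17 members were listed at 0 in all 4 fiber and leaf libraries. Of these, 15 were A-genome models, and their mean ovule FPKM ran from 28.5 to 237 with a median of 46.0. With values above 0 in the ovule libraries alone, whole reads can be recovered only where they form a ratio of small whole numbers, which was so for 8 of the 17. Cotton_A_14595 at rank 3 was listed at 213 and 222 FPKM in ovules, which stand as 9 to 8 reads after depth. Cotton_A_19733 at rank 20 had 94.5 and 83.1 FPKM in ovules, as 4 to 3 reads, and Cotton_A_18746 at rank 81 had 42.4 and 49.7 FPKM, as 1 to 1. The true reads of these models may be any multiple of these numbers, so the depth behind their zeros is not known. Cotton_A_39560 at rank 2, with 257 and 217 FPKM in ovules, was also at 0 elsewhere, and its reads could not be recovered.

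Reads were recovered for 149 members and 51 had none recovered, 41 of them D-genome models. The recovered reads of a member over the 6 libraries had a median of 1155 and reached 8708, and 118 members had 500 or more. The fiber and leaf libraries contributed a median of 26 reads per member, and 46 members had 10 or fewer recovered there.

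Several of the most abundant members were still clearly detected outside the ovule. Cotton_A_21432 had the highest ovule level, 2901 and 2814 FPKM, with 16.8 and 13.6 FPKM in fibers and 45.1 and 36.6 FPKM in leaves. Cotton_A_28888 had 2071 and 2011 FPKM in ovules, 16.7 and 7.96 FPKM in fibers and 44.9 and 38.5 FPKM in leaves. Gorai.004G004100 had 2018 and 1996 FPKM in ovules, 13.7 and 9.81 FPKM in fibers and 27.7 and 26.8 FPKM in leaves. In all 3 models both leaf libraries lay above both fiber libraries.

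Cotton_A_01007 showed the opposite order, with 1864 and 1842 FPKM in ovules, 24.8 and 24.9 FPKM in fibers and 4.25 and 1.87 FPKM in leaves. Cotton_A_13919 had 1913 and 1782 FPKM in ovules, 12.5 and 7.78 FPKM in fibers and 23.1 and 25.2 FPKM in leaves. Cotton_A_00396 had 1450 and 1371 FPKM in ovules, 5.85 and 8.09 FPKM in fibers and 37.4 and 40.2 FPKM in leaves. The remaining 3 of the 10 highest, not counting Cotton_A_10547, were Cotton_A_22550, Cotton_A_11447 and Gorai.006G104500, all with an ovule mean of at least 1274 FPKM and with both leaf libraries above both fiber libraries.

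Whether the low remaining expression was higher in fibers or in leaves is not set by the ranking, which used only the higher of both tissue means. The ranking did hold both means down, and 88 members had fiber and leaf means both under 1 FPKM, where a 2-fold difference on the log2(FPKM + 1) scale is out of reach. Between fiber and leaf, 14 members were called higher in the fiber and 32 lower in the fiber (limma, adjusted p under 0.01 and over 2-fold), against 25.6% of all tested models higher and 25.3% lower. Called members thus made up 7% and 16% of the 200. Of the 112 members with a mean of 1 FPKM or more in either tissue, 41.1% were called, against 56.9% of all tested models that met the same condition. The members' median difference was 0 on the log2 scale, and 0.04 over all tested models. The lower count fell to 21 without fiber replicate 2, 23 without leaf replicate 2, and 22 without either ovule replicate, and an analysis of variance per model gave 8 higher and 3 lower members. Quantile normalization gave a more even split, 22 higher and 28 lower, with a median of 0.15 over all tested models, median-of-ratios scaling gave 15 higher against 41 lower, and a pseudocount of 0.1 gave 28 higher and 40 lower. With 2 libraries per tissue these calls depend on limma's pooling of the spread across models.

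**Figure D3:**
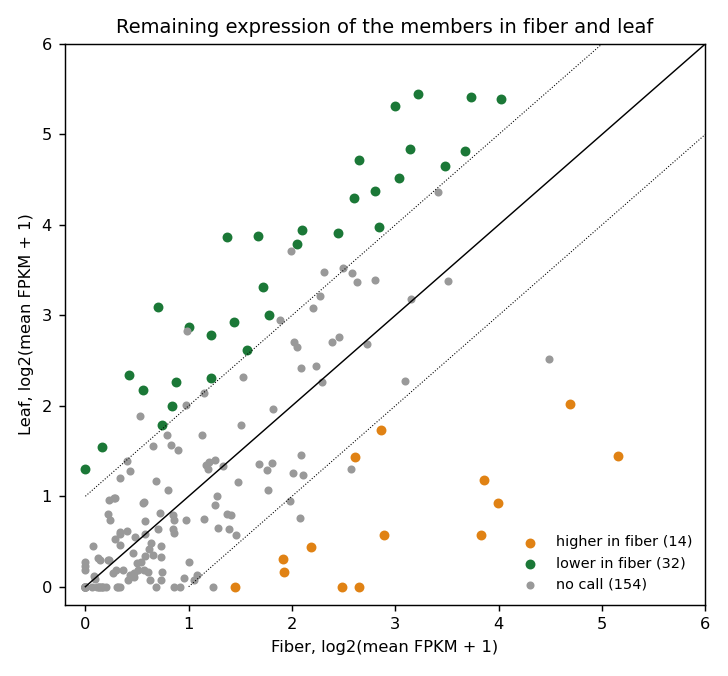
Mean fiber expression (x) against mean leaf expression (y) of the 200 members, both as log2(mean FPKM + 1); the solid line marks equal values and the dotted lines 2-fold. The 14 members called higher in the fiber (orange) and the 32 called lower in the fiber (green) lie on opposite sides, and most members without a call (grey) sit near the origin.

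Among members higher in the fiber, Gorai.013G015900 had 38.2 and 30.9 FPKM in fibers and 2.82 and 0.606 FPKM in leaves, beside 1171 and 1093 FPKM in ovules. Its difference of 3.84 (fiber minus leaf, log2, SE 0.41, limma adjusted p 0.000492) rested on 173 and 135 reads in fibers and 9 and 2 reads in leaves. Cotton_A_24511 had 14.1 and 12.3 FPKM in fibers and 0.660 and 0.320 FPKM in leaves, a difference of 3.26 (SE 0.13, limma adjusted p 2.69e-06). Cotton_A_07113 had 14.2 and 15.6 FPKM in fibers and 1.22 and 0.590 FPKM in leaves, a difference of 3.08 (SE 0.17, limma adjusted p 1.07e-05). In all 3 models both fiber libraries lay above both leaf libraries.

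Among members lower in the fiber, Cotton_A_37611 had 2.71 and 0.469 FPKM in fibers and 14.1 and 13.0 FPKM in leaves, a difference of -2.64 (SE 0.43, limma adjusted p 0.00275) from 6 and 1 reads in fibers and 22 and 21 reads in leaves. This call was lost without leaf replicate 1 or leaf replicate 2, while the difference stayed at -2.59 and -2.69. Cotton_A_32491 had 0.833 and 0.432 FPKM in fibers and 5.91 and 9.15 FPKM in leaves, a difference of -2.37 (SE 0.21, limma adjusted p 8.33e-05). Cotton_A_00396, described above, had a difference of -2.33 (SE 0.14, limma adjusted p 1.18e-05). Recovered reads in fibers were few in all 3 models, with 2 and 1 for Cotton_A_32491 and 6 and 8 for Cotton_A_00396. By the analysis of variance, Gorai.013G015900, Cotton_A_37611 and Cotton_A_32491 were not called.

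Of the 30 members with a mean ovule level of 500 FPKM or more, 4 were called higher and 15 lower in the fiber. Of the 80 members from 100 to 500 FPKM, 10 were called higher and 14 lower, and of the 90 members under 100 FPKM, 0 were called higher and 3 lower. The ranking ties these counts to abundance, since it allows less fiber and leaf expression in a member with less in the ovule, and in 71 of the 90 both means were under 1 FPKM, where no call could be made. Of the 10 highest members, 1 was called higher and 8 lower in the fiber. Over all tested models, whatever their ovule level, 25.6% were called higher and 25.3% lower.

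As a share of the ovule level, expression outside the ovule varied among members. The ranking capped this share, and few reads outside the ovule add counting error to it, so its spread is description only. The fiber mean was 0.630% of the ovule mean at the median, with quartiles of 0.348% and 1.21%, and the leaf mean was 0.696%, with quartiles of 0.128% and 1.76%. Among the 118 members with 500 or more reads, the 10th and 90th percentiles were 0.176% and 1.96% in fiber and 0.0865% and 2.73% in leaf. Replicates of the same tissue also differed. Of the members with unequal values, 68.2% were higher in fiber replicate 1 than in fiber replicate 2 and 67.3% were higher in leaf replicate 1 than in leaf replicate 2, against 50.7% and 47.8% of all models that passed the ovule minimum and the replicate limit. The members' summed FPKM in fiber replicate 1 was 1.24 times that in fiber replicate 2, and in leaf replicate 1 it was 1.03 times that in leaf replicate 2.

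A-genome models made up 113 of the 200 members, or 56.5% (95% exact binomial interval 49.3% to 63.5%, counting error only), beside 48.9% of the models that passed the minimum and limit and 51.9% of the table. The A-genome share was 57% in ranks 1 to 100 and 56% in ranks 101 to 200. A-genome members had a median ovule mean of 120.4 FPKM and D-genome members of 130.4 FPKM, and their median ratios were 39.7 and 39.4. The parts differed in zero values, with 15 A-genome and 2 D-genome members at 0 throughout fibers and leaves. The study's methods describe the use of uniquely mapped reads alone. Where this holds for the table, a model can lose reads to a nearly identical copy in the other genome. Its value is then uncertain to that extent.

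FPKM per recovered read is higher for shorter models, and it is an upper bound because recovered reads are lower bounds. For the 103 A-genome members with recovered reads the median was 0.264 FPKM per read in fiber replicate 1. It was 0.109 in the 8970 A-genome models with recovered reads that passed the minimum and limit. For the 46 D-genome members with recovered reads the median was 0.121, beside 0.0713 in 3073 such D-genome models. Of these members, 73.8% of the A-genome and 84.8% of the D-genome models lay above the median of their genome. The value is missing for 51 members, and it was found for only 12043 of the 19347 models that passed the minimum and limit. Most models without it were D-genome models, since 8970 of the 9466 A-genome models had one. Model lengths were not checked. Over both genomes the median was 0.179 in the ovule list, 0.120 in the list the same rule gave for fiber and 0.158 in that for leaf.

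**Figure D4:**
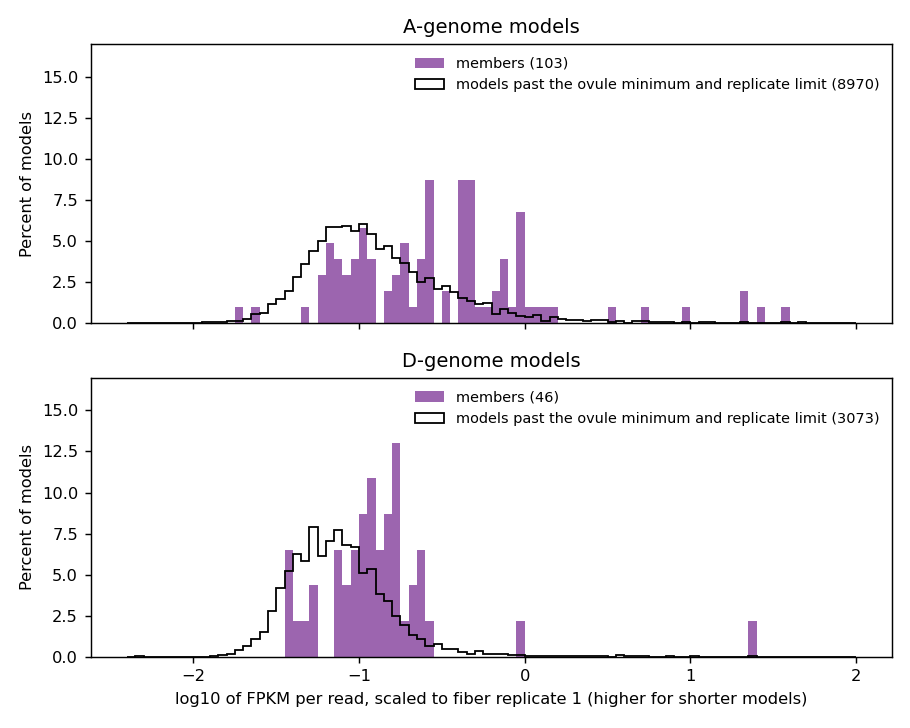
FPKM per recovered read, scaled to fiber replicate 1, on a log10 axis, as percent of each set. Purple bars are members and the black outline is models past the ovule minimum and the replicate limit. Both hold only models with recovered reads. The A genome is above and the D genome below. Members tend to lie to the right of the outline, with medians of 0.264 against 0.109 in the A genome and 0.121 against 0.0713 in the D genome.

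Some members shared exactly the same FPKM per read, as models of equal length would. Within a relative tolerance of 2e-05, 45 of the 149 members with recovered reads fell into 15 groups of 2 or more members. The largest group had 8 A-genome members at 0.452 FPKM per read, which were 27.6% of the 29 models at that value among those that passed the minimum and limit. The next had 7 members at 0.975 FPKM per read, 6 from the A genome and 1 from the D genome, and these were 31.8% of 22 models. Members were 1.24% of all models with recovered reads that passed the minimum and limit. Groups of 5 or more numbered 2 among the ovule-restricted models and 0 in each of the lists that the same rule gave for fiber and for leaf, where reads were recovered for 122 and 100 members. Equal length does not show that models share a sequence, which was not analysed here.

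In the group of 8, ovule means ran from 167 to 2041 FPKM, fiber means from 1.59 to 12.3 FPKM and leaf means from 1.58 to 41.7 FPKM. Its members were Cotton_A_11447, Cotton_A_08552, Cotton_A_28888, Cotton_A_08554, Cotton_A_19570, Cotton_A_28889, Cotton_A_37611 and Cotton_A_24643, with ranks between 46 and 186. Leaf means exceeded fiber means in 6 of the 8, beside 96 of all 200 members. In the fiber 4 were called lower, beside 16% of the 200 and 25.3% of all tested models. Calls went with abundance, since 15 of the 30 members at 500 FPKM or more in the ovule were called lower. The group, with a median ovule mean of 565 FPKM, was not matched for abundance. Cotton_A_08552 had 1052 and 1023 FPKM in ovules, 9.93 and 9.37 FPKM in fibers and 21.2 and 18.0 FPKM in leaves. Cotton_A_24643 had 691 and 678 FPKM in ovules, 6.32 and 4.22 FPKM in fibers and 25.6 and 24.8 FPKM in leaves.

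In the group of 7, ovule means ran from 192 to 1502 FPKM, fiber means from 0.975 to 21.4 FPKM and leaf means from 4.71 to 38.8 FPKM. Its members were Cotton_A_10547, Cotton_A_21428, Gorai.004G005900, Cotton_A_00396, Cotton_A_23339, Cotton_A_26113 and Cotton_A_11103. Cotton_A_11103 stood apart from the other members of the group in fibers, with 16.6 and 26.3 FPKM, beside 562 and 593 FPKM in ovules and 1.38 and 8.03 FPKM in leaves. Of the 7, 1 was called lower in the fiber and 0 higher, beside 16% and 7% of all 200 members. Over all tested models the shares were 25.3% and 25.6%.

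The identifiers are numbered, and members were looked up for neighbouring numbers. In the table, 18 members formed 9 pairs with consecutive identifiers, 6 pairs from the A genome and 3 from the D genome. The same rule gave 4 pairs in the fiber list and 5 in the leaf list. Within 5 steps, 24 ovule members fell into 11 runs, against 8 members in 4 runs for fiber and 12 members in 6 runs for leaf. The leaf mean exceeded the fiber mean in 16 of the 18 paired members, beside 96 of all 200. Of the 18, 9 were called lower and 0 higher in the fiber, beside 16% and 7% of the 200. Over all tested models 25.3% were called lower and 25.6% higher. Calls also went with abundance, since 15 of the 30 members at 500 FPKM or more in the ovule were called lower. The pairs were not matched for abundance. What consecutive numbers mean on the chromosome was not checked here.

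The pair with the highest sum was Cotton_A_21432, described above, and Cotton_A_21433, which had 364 and 328 FPKM in ovules, 1.88 and 0.558 FPKM in fibers and 4.58 and 2.22 FPKM in leaves. The next was Gorai.004G004000 and Gorai.004G004100. Gorai.004G004000 had 1145 and 1105 FPKM in ovules, 9.17 and 6.53 FPKM in fibers and 28.4 and 27.1 FPKM in leaves. In both pairs the model with the higher ovule level also had the higher or nearly equal leaf level.

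Cotton_A_28889, next to Cotton_A_28888 and equal to it in FPKM per read, had 233 and 184 FPKM in ovules, 2.71 and 4.69 FPKM in fibers and 4.49 and 4.34 FPKM in leaves. Its ovule level was thus far below that of its neighbour. Gorai.004G277200 had 461 and 431 FPKM in ovules, 2.67 and 1.26 FPKM in fibers and 4.64 and 5.66 FPKM in leaves, and its neighbour Gorai.004G277300 had 740.4 and 784 FPKM in ovules, 5.53 and 3.34 FPKM in fibers and 10.8 and 17.4 FPKM in leaves. Both were higher in leaves than in fibers in every library.

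Gorai.011G056400 had 241 and 225 FPKM in ovules, 5.06 and 3.39 FPKM in fibers and 6.23 and 4.79 FPKM in leaves, where the fiber and leaf libraries overlapped. Its neighbour Gorai.011G056500 had 797 and 788 FPKM in ovules, 6.19 and 3.93 FPKM in fibers and 19.3 and 18.0 FPKM in leaves. Cotton_A_32492, beside Cotton_A_32491 and equal to it in FPKM per read, had 473 and 444 FPKM in ovules, 6.25 and 3.03 FPKM in fibers and 13.0 and 8.01 FPKM in leaves.

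The members lay close together in 2 longer identifier stretches, which were chosen after the values had been seen. From Gorai.004G002700 to Gorai.004G005900 the table has 33 models, of which 5 were members, 10 were at 0 in all libraries and 4 had their highest mean in fiber. Gorai.004G003900, next to the member pair but at rank 719, had 612 and 615 FPKM in ovules, 33.2 and 34.8 FPKM in fibers and 62.9 and 58.8 FPKM in leaves. From Cotton_A_21409 to Cotton_A_21434 there are 26 models, of which 4 were members, 6 were at 0 in all libraries and 4 had their highest mean in fiber. Here Cotton_A_21434, next to the member pair but at rank 394, had 3782 and 3927 FPKM in ovules, 86.1 and 73.1 FPKM in fibers and 237 and 242 FPKM in leaves, above any member in the ovule. Cotton_A_21415 at rank 261 had 400.1 and 399 FPKM in ovules, 2.92 and 2.02 FPKM in fibers and 4.15 and 32.1 FPKM in leaves, and it shared the FPKM per read of 0.975 with Cotton_A_21428 and Gorai.004G005900. In each stretch 7 models had a ranking ratio over 5, and silent or differently expressed models lay between them.

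**Figure D5:**
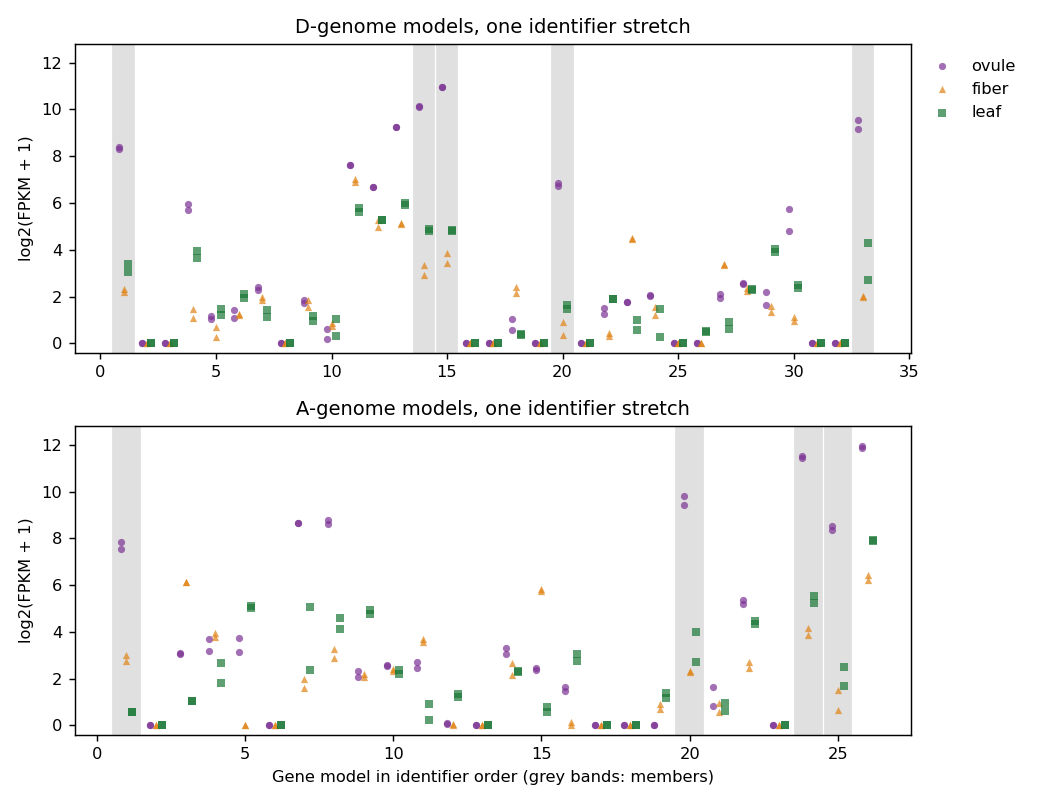
log2(FPKM + 1) in each library (circles ovule, triangles fiber, squares leaf, 2 points per tissue) for consecutive identifiers from Gorai.004G002700 to Gorai.004G005900 (above, 33 models) and from Cotton_A_21409 to Cotton_A_21434 (below, 26 models); grey bands mark members. The 5 and 4 members stand far above their fiber and leaf points, and models at 0 or with other patterns lie between them.

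The 3 digits before the G in a D-genome identifier divide the models into 13 numbered groups. Group 4 held 16 of the 87 D-genome members, or 18.4%, beside 8.49% of the D-genome models that passed the minimum and limit. Group 9 held 12 (13.8%, beside 12.6%), and group 5 held 2 (2.30%, beside 7.40%). Part of the number in group 4 comes from the stretch of 5 members described above.

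To see how far the ranking depended on single libraries, it was repeated on 1 library per tissue and read in the libraries not used. The 200 models ranked highest on replicate 1 had a median ratio of 43.4 there and of 41.1 in replicate 2, and 187 exceeded a ratio of 10 in replicate 2. Ranked on replicate 2, the 200 highest had a median ratio of 44.4 there and of 39.2 in replicate 1, where 192 exceeded 10. Among all models at 5 FPKM or more in the ovule library read, 3.75% and 3.79% exceeded 10 in replicates 2 and 1. The rankings shared 158 models with each other, and 171 and 173 with the members. The lowest ratio in the libraries not used was 0.985 in replicate 2 and 0.028 in replicate 1, so a few models ranked on a single library per tissue were not restricted to the ovule in the other.

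The same rule applied to fiber and leaf gave lists with other levels. The ovule list had a median own-tissue mean of 125 FPKM and held 5.91% ± 0.00536 of its tissue's FPKM. The fiber list had a median of 154 FPKM and held 15.4% ± 0.398, and the leaf list had a median of 530.2 FPKM and held 28.9% ± 0.475 (mean ± SD, n = 2 each). The highest own-tissue mean was 2857 FPKM in the ovule list, 29284 FPKM in the fiber list and 47651 FPKM in the leaf list. The ratio at rank 200 was 24.9 in the ovule list, 24.2 in the fiber list and 51.7 in the leaf list, and the A-genome share was close, with 113, 113 and 110 members. These values describe lists chosen by their own levels and were not tested.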

How the data were processed

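Gene expression was analysed in ovules at 0 DPA, fibers at 14 DPA and young leaves, with 2 libraries per tissue grouped by sample title. The authors deposited 1 table of FPKM values. The study's methods describe mapping with Tophat, the use of uniquely mapped reads alone, and Cufflinks for the abundance of each annotated gene. The processing notes also name CASAVA 1.8. The methods name the TM-1 genome as reference, but the table's identifiers (40134 Cotton_A, 37223 Gorai) are not those of the study's text, and this was not resolved here. No other scaling between libraries is described.

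The members and lists were chosen with earlier results of these data known. Fiber was compared with leaf in limma 3.58.1 (R 4.3.3) on log2(FPKM + 1), which understates changes of low values, with 1 model over 6 libraries, trend and robust moderation, a minimum of 0.5 mean FPKM (42214 models) and Benjamini-Hochberg adjustment. Calls needed an adjusted p under 0.01 and over 2-fold. The limma fit and the recovery of reads were each tested on simulated data. The limma simulation changed only models of higher mean level, so it does not cover changes at the members' low fiber and leaf values.

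Whole reads were sought per model after scaling each library by its relative depth, accepting deviations of 0.003 to 0.05 of a read and a chance of a false match up to 0.001 (0.1 where only 2 libraries were above 0). They were recovered for 36631 of 51808 models above 0 in 2 or more libraries (70.7%) and were used for no call. Python 3.11.15, pandas 2.3.3 and numpy 2.4.6 were used.

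Models were named by rule: the 10 highest ranks, the 10 highest ovule means, 3 inside and 3 outside the limit, the 3 largest fiber-leaf calls per direction, and up to 6 runs of consecutive identifiers. The other models named (members of equal FPKM per read, members at 0 outside the ovule with recovered reads and models of the stretches) were chosen after their values had been seen. Alternatives varied the pseudocount, minimum, replicate limit, scaling, test, block and libraries. Marker lists could not be applied to unnamed identifiers.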

Additional observations from a re-analysis of the deposited data

How the results depend on the processing

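Of 159 values recomputed under alternatives, 145 kept their call or stayed within the limits set (1.5 times for a count). The other 14 did not, and 0 reversed. Several values could hardly change, so the tally overstates how much was tested. The ovule calls use the contrasts that chose the members, and an ovule minimum of 1 or 10 FPKM lies below every member's ovule values. A named fiber-leaf difference keeps its size when an ovule library is left out. Membership moved most with the pseudocount of the ranking, since 107 of the 200 members remained with 0.1 FPKM, which favours low values. Under the other ranking alternatives 139 (pseudocount 5) to 200 members remained, 182 to 194 when a library was left out, and 192 without models of under 50 recovered reads, an alternative chosen after seeing the data. The A-genome share stayed between 55% and 62%, and between 56% and 59.5% when a library was left out.

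Fiber-leaf calls numbered 28 higher and 40 lower with a pseudocount of 0.1, 22 higher with quantile normalization, and 8 higher and 3 lower by the study's rule. With median-of-ratios scaling there were 15 higher and 41 lower. The cause of these shifts was not tested. Leaving out a library gave 12 to 19 higher and 21 to 34 lower, 199 to 200 members above fiber and 200 above leaf in the ovule. Cotton_A_37611 lost its call without either leaf replicate (-2.59 and -2.69). By the analysis of variance, 3 of the 6 named models with fiber-leaf calls lost theirs. Deviations of equal replicate numbers were nearly uncorrelated between tissues (-0.056, 0.050 and -0.059). This does not show whether equal numbers shared plants or harvests. With the replicate number as a block, 14 members were higher and 33 lower.

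Members absent from fiber and leaf numbered 74 at under 1 FPKM in place of 0. The members' share of ovule FPKM was 4.07% without the 10 highest members and 4.10% without the 100 highest models of each library, which removes abundant members by construction. Depth limits the fiber and leaf values most, where 46 members had 10 or fewer recovered reads.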
